A study of Mus musculus with 8 samples.

Results

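The 10 genes described here are S100a8, S100a9, Csf3r, Cxcr2, Retnlg, Mmp9, Ngp, Camp, Ltf and Ly6g, a list of neutrophil genes given by name, with no threshold on their values. All 10 are among the 17921 genes of the count table. They were followed through the authors' cell labels and clusters in 20778 cells of 8 left lung grafts, to see which labelled cells carry them and what level they reach elsewhere. The B6→B6 group had 5 mice, in which lungs of C57BL/6 (B6) donors went into B6 recipients, and its labels call it the control without rejection. The HLA→B6 group had 3 mice, in which the donor was a B6 mouse carrying a transgene for the human HLA-A2 molecule, and its labels name bronchiolitis obliterans syndrome (BOS), the chronic airway form of lung rejection. All mice were male, none received immunosuppression, and grafts were taken 1 month after transplantation. Each mouse gave 1 library from 10000 loaded cells, so the mouse is the replicate, and with 1 graft per mouse the donor transgene, the rejection and the library of a mouse cannot be told apart. A graft holds donor cells and cells that came from the recipient, and a neutrophil label does not say which.

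Neutrophils are short-lived phagocytes made in the bone marrow and called into the lung within hours of injury. They fill their granules in order while they mature, with primary granule proteases first, secondary granule proteins next and gelatinase last, and the transcripts of the early granules are mostly gone when the cell leaves the marrow. In the lung they are known for early graft injury and for the airway inflammation that goes with chronic rejection. Their RNA content is low, and in droplet data they often fall near the lower limit of depth.

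The list falls into 4 roles. S100a8 and S100a9 encode the subunits of calprotectin, the calcium-binding protein that makes up much of the neutrophil cytosol. Csf3r is the receptor of granulocyte colony-stimulating factor, and Cxcr2 is the receptor for the CXC chemokines that draw neutrophils into tissue. Ngp, Camp (cathelicidin) and Ltf (lactoferrin) are secondary granule proteins, and Mmp9 is the gelatinase of the tertiary granules. Ly6g is the surface protein used to stain mouse neutrophils, and Retnlg is a resistin-like secreted protein of mature neutrophils. In GRCm38 (GENCODE vM21) S100a8 lies at chr3:90668978-90670035 on the plus strand and S100a9 at chr3:90692632-90695721 on the minus strand, 22596 bases apart. Camp (chr9:109847379-109849617, minus strand), Ngp (chr9:110419747-110423012, plus strand) and Ltf (chr9:111019271-111042767, plus strand) lie on the same chromosome within 1195389 bases. The others are Csf3r (chr4:126024550-126044440), Cxcr2 (chr1:74153989-74161246), Retnlg (chr16:48872621-48874496), Mmp9 (chr2:164940780-164955850) and Ly6g (chr15:75155240-75159126), all on the plus strand.

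The upstream sequences of the calprotectin pair and of the 3 secondary granule genes are shown because their transcripts were found together in cells, the pair in nearly every leukocyte-labelled cell and the 3 in a few of them. They are RefSeq sequences of GRCm38.p6, written 5′ to 3′ on the strand of the gene, and stop before the first base of the gene in either annotation. Capitals mark matches on either strand to TTGCNNAA, the core bound by C/EBP factors, which drive granule genes, and to GAGGAA, a core bound by PU.1, the myeloid regulator.
S100a8 (chr3:90668821-90668977, plus strand): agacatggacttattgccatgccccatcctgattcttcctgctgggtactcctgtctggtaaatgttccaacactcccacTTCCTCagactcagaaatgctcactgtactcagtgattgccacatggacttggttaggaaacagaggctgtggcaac
S100a9 (chr3:90695722-90695971, minus strand): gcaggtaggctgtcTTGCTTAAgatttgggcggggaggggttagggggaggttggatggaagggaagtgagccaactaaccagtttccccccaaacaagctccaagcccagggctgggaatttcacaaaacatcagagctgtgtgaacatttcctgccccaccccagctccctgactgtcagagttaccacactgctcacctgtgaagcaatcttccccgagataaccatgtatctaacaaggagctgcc
Ngp (chr9:110419558-110419746, plus strand): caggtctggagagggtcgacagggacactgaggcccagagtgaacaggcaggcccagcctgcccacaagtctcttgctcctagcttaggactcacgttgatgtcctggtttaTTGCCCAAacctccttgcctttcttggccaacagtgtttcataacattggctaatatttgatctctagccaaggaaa
Camp (chr9:109849618-109849706, minus strand): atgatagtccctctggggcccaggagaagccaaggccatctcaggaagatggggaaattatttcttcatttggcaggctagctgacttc
Ltf (chr9:111019042-111019270, plus strand): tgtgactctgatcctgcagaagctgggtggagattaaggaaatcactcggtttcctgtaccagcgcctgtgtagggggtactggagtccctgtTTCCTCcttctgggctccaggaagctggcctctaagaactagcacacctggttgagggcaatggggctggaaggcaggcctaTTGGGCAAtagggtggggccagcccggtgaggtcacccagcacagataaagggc
S100a8 had 1 match to GAGGAA in its stretch of 157 bases, S100a9 had 1 match to TTGCNNAA in 250 bases, Ngp had 1 match to TTGCNNAA in 189 bases and Ltf had 1 match to each in 229 bases. Camp had neither in its 89 bases. In the 250 bases before each RefSeq start, 9.56% of all 32851 promoters held TTGCNNAA and 23.3% held GAGGAA. Of the 9 listed genes with a RefSeq promoter, 5 held TTGCNNAA (S100a9, Ngp, Ltf, Ly6g and Retnlg) and 5 held GAGGAA (S100a8, Csf3r, Cxcr2, Ltf and Ly6g). These are matches of letters and no measurement of binding.

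The libraries were uneven. They held 868 to 6544 cells at a median of 1356 to 1948 UMIs (unique molecular identifiers, 1 per counted transcript molecule) per cell. The barcodes of 1014 cells occurred in more than 1 library, 25 of these cells being among the 1390 labelled leukocyte, and B6→B6 mice 1, 2 and 3 with HLA→B6 mouse 2 formed a set linked by such barcodes. HLA→B6 mouse 1 stood apart for the genes of this list, with 864 of the 1390 leukocyte-labelled cells and 49 of the 57 cells outside that label that carried 3 or more of the genes, so values with and without it are given where a result rests on it. HLA→B6 mouse 3 had 5 leukocyte-labelled cells and was left out of tests within that label, which needed 10 cells per mouse.

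One label held the neutrophil genes. The cells the authors labelled leukocyte, which form their cluster 5, carried 96.8% of all UMIs of the 10 genes in 1390 of 20778 cells. Every gene had its highest level there, in CPM (UMIs of the gene scaled to an equal UMI total) over all mice together. S100a8 reached 104071 CPM in these cells and 97.1% of its UMIs, S100a9 66927 CPM and 97.0%, and Retnlg 14582 CPM and 97.6%. The shares were 94.9% for Mmp9, 90.4% for Cxcr2 and 97.8% for Ly6g, and 99.6%, 99.0% and 94.7% for Ngp, Camp and Ltf. Csf3r was the exception, with 74.0% of its UMIs in this label, 13.4% in monocytes and 10.3% in alveolar macrophages.

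**Figure D1:**
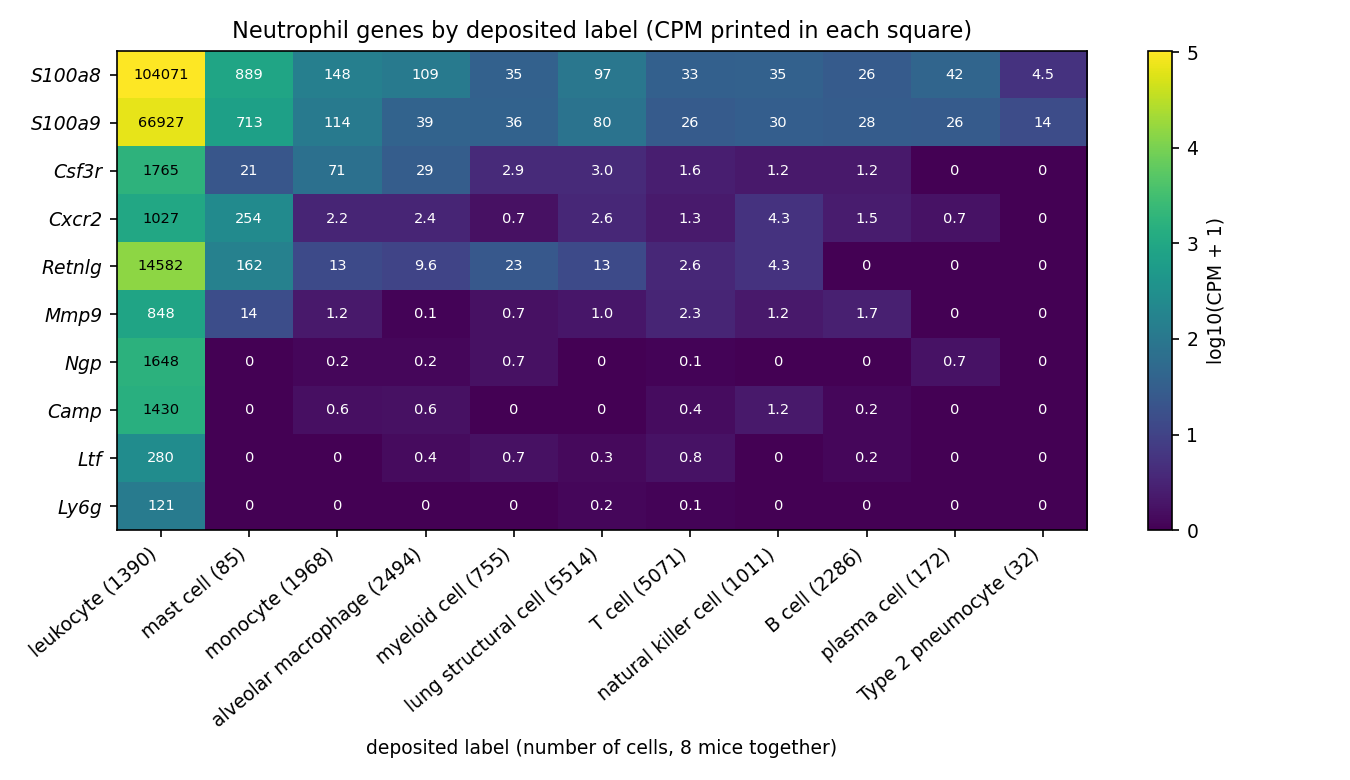
Level of each neutrophil gene in each of the 11 deposited labels, in CPM of the label's UMIs over 8 mice together, with colour on a log10(CPM + 1) scale and the number of cells under each label. The leukocyte column is the brightest for all 10 genes, and Csf3r in monocytes (71.3 CPM) and Cxcr2 in mast cells (254 CPM) stand out from the rest of their rows.

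The neutrophil genes were the rule of the search and so no test of the label. As a further description, the mean over 7 mice in leukocyte-labelled cells was set against the pooled level of all other cells. All 22 other genes listed for mature neutrophils were higher in the label by this comparison, 9 of them with over 50% of their UMIs there. So were 14 of 14 other receptors. Among them was C5ar1, the receptor of the complement fragment C5a, at 917 ± 251 CPM (SD over 7 mice) against 50.9 CPM. The 2 sides are unlike measures. Itgb2, at 357 ± 89.4 against 274 CPM, was not higher with UMIs pooled on both sides. Of 6 subunits of the NADPH oxidase, which makes the oxidative burst, 5 were higher, with Cybb at 98.4 ± 105 CPM against 307 CPM the exception. Among 8 other secondary and tertiary granule genes 5 were higher. Lower were Cybb again, Lyz2 (5338 ± 5302 against 10571 CPM) and Chil3 (653 ± 1111 against 789 CPM). Among 4 primary granule genes 2 were higher, Prtn3 and Ms4a3, seen in 0.288% and 0.0719% of the cells. With UMIs pooled on both sides Prtn3 was not higher. Of 7 alveolar macrophage markers, Marco and Ear1 had no UMI and the others were in at most 0.576% of the cells. Of 8 monocyte markers none was higher than in the other cells, and their sum ranged from 238 to 749 CPM in the B6→B6 mice and from 433 to 453 CPM in the HLA→B6 mice, against 4102 to 6408 CPM in cells labelled monocyte. Epithelial markers summed to 0 to 2562 CPM and red cell markers to 0 to 4103 CPM in the B6→B6 mice, and to 396 to 978 CPM and 283 to 1348 CPM in the HLA→B6 mice, and their part in these values was not tested. By the same comparison no listed marker of T, B, natural killer, dendritic, endothelial, epithelial, red blood or mast cells or eosinophils was higher in the label. The platelet markers Pf4 and Ppbp were, with 1.14% and 1.91% of their UMIs in the label. With UMIs pooled on both sides Pf4 and Ppbp were lower there, Ppbp at 34.7 against 45.8 CPM. At most 3.38% of the cells had 2 or more markers of any 1 of these types. The cells were shallow, at a median of 678.5 UMIs and 337 genes against 1590 UMIs and 813 genes in all other cells, and 15.5% of them had under 500 UMIs against 5.10% of the others.

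The 10 genes outside the list with the most similar profile were found over 90 sums of 1 cluster in 1 mouse, by the Pearson correlation of log2(CPM + 1) with the mean of the 10 genes. They were Stfa2l1 (r = 0.91), Il1f9 (0.91), Gm5483 (0.90), Gm20406 (0.89), Retn (0.87), AC110211.1 (0.87), Arg2 (0.85), Il1r2 (0.83), Slfn4 (0.80) and Lcn2 (0.80). The sums share libraries and depths, and most lie near 0, so r describes the shared peak in 1 cluster. Between 67.3% (Arg2) and 96.6% (Stfa2l1, a stefin) of the UMIs of these genes were in leukocyte-labelled cells. Il1r2, the decoy receptor of interleukin-1, was seen in 44.4% of them.

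The number of leukocyte-labelled cells differed by mouse more than by group. In the B6→B6 mice 1 to 5 they made up 1.80%, 5.48%, 12.04%, 1.81% and 1.96% of all cells, from 17, 74, 293, 74 and 17 cells. In the HLA→B6 mice 1 to 3 they made up 13.2%, 1.40% and 0.401%, from 864, 46 and 5 cells. The highest and the lowest share were both in the HLA→B6 group, with all B6→B6 mice between them. Counting cells without the labels gave the same order. Cells with a UMI of at least 3 of the 10 genes made up 1.80%, 5.48%, 11.997%, 1.81% and 1.96% of cells in the B6→B6 mice and 13.6%, 1.43% and 0.482% in the HLA→B6 mice, which is 4.61% ± 4.42 (SD, n = 5) and 5.18% ± 7.33 (SD, n = 3). The difference of 0.573 percentage points was within the spread of the mice (exact permutation test over 56 splits, two-sided, p = 0.875, smallest possible p 0.0179). Without HLA→B6 mouse 1 it was −3.65 percentage points (exact p = 0.333). Within the 4 libraries linked by shared barcodes it was −5.00 percentage points (exact p = 0.5) and within the other 4 it was 5.17 (exact p = 1), so the direction turned between the sets.

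S100a8 and S100a9 were found in nearly all leukocyte-labelled cells. S100a8 was seen in 99.8% of them and S100a9 in 98.9%, with 95% intervals of 99.4% to 99.96% and 98.2% to 99.4% (exact Clopper-Pearson, counting error only). In T cells, which do not express either gene, the shares were 0.868% and 1.22% at a higher median depth (1648 UMIs). S100a8 stood at 118337, 129876, 98657, 76712 and 76088 CPM in the B6→B6 mice 1 to 5 and at 106567, 86116 and 114471 CPM in the HLA→B6 mice 1 to 3. S100a9 stood at 77082, 81715, 65726, 52959 and 45832 CPM and at 67412, 58213 and 73840 CPM. The pair together made up 12.2% to 21.2% of all UMIs of these cells. In both genes the HLA→B6 mice lay inside the range of the B6→B6 mice.

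The pair had a similar ratio in all mice. S100a8 UMIs were 60.6%, 61.4%, 60.0%, 59.2% and 62.4% of the S100a8 and S100a9 UMIs in the leukocyte-labelled cells of the B6→B6 mice, and 61.3%, 59.7% and 60.8% in those of the HLA→B6 mice. The range over the 8 mice was thus 59.2% to 62.4%, although the mice differed in the number of these cells from 5 to 864.

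The receptors were seen in most leukocyte-labelled cells. Csf3r was at 1061, 1657, 2046, 2013 and 2553 CPM in the B6→B6 mice and at 1628, 2009 and 1670 CPM in the HLA→B6 mice. Cxcr2 was at 1186, 933, 1134, 1061 and 1660 CPM and at 975, 1019 and 928 CPM. The HLA→B6 values of Csf3r lay inside the B6→B6 range, and those of Cxcr2 lay at its lower end or, in mouse 3 (5 UMIs), just below it. Of the 1390 cells 72.2% had a Csf3r UMI and 52.7% a Cxcr2 UMI, against 0.237% of T cells for each. Among the 1175 cells with at least 500 UMIs, 472 had both.

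Retnlg and Mmp9, genes of mature cells, varied more. Retnlg was at 4806, 11279, 11019, 9680 and 7213 CPM in the B6→B6 mice and at 17743, 8830 and 3340 CPM in the HLA→B6 mice, so that HLA→B6 mouse 1 lay above and mouse 3, with 5 cells and 18 UMIs, below all B6→B6 mice. Mmp9 was at 749, 896, 931, 1244 and 1660 CPM and at 762, 707 and 1113 CPM. Ly6g was thinly covered, with 132 UMIs in 87 of the 1390 cells (6.26%), and stood at 250, 331, 89.6, 0 and 63.8 CPM in the B6→B6 mice and at 116, 84.9 and 186 CPM in the HLA→B6 mice. The 186 CPM rest on 1 UMI, and at 74 cells the zero of B6→B6 mouse 4 allows up to 54.9 CPM (3 counts).

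None of the 10 genes was called as different between the groups within leukocyte-labelled cells. The test compared sums per mouse in the 5 B6→B6 mice and HLA→B6 mice 1 and 2 (edgeR quasi-likelihood test with Benjamini-Hochberg adjustment over all genes). It called 0 of 10 genes, and 0% of all 913 genes tested. At an unadjusted p under 0.05 it found 0 of the 10 and 46 of the 913, and DESeq2 also called 0 of the 10. For S100a8 the log2 fold change (HLA→B6 over B6→B6) was −0.03 ± 0.29 (SE, adjusted p = 0.9996 with edgeR), with a 95% interval of −0.69 to 0.63. For S100a9 it was −0.02 with an interval of −0.68 to 0.64, for Csf3r −0.01 (−0.62 to 0.61) and for Cxcr2 −0.20 (−0.71 to 0.32). For Retnlg it was 0.64 (−0.24 to 1.52), and −0.05 without HLA→B6 mouse 1, and for Mmp9 −0.50 (−1.16 to 0.15). Ly6g was at −0.41 (−2.58 to 1.76). The intervals of Ngp (−8.30 to 2.23), Camp (−7.79 to 2.66) and Ltf (−7.14 to 2.25) were too wide to place a change.

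The other lists showed no called gene in these cells either. The median log2 fold change was −0.39 over 21 tested genes of mature neutrophils, −0.29 over 10 receptors, −0.16 over 5 oxidase subunits and −0.69 over 5 other granule genes, beside −0.30 over the 10 neutrophil genes and −0.0002 over all 913. The directions in the 10 genes were not stable, with 1 of 10 positive here and 6 of 10 with the library set as a covariate, where 0 were called. With the highest levels, S100a11, a further S100 protein, was at a log2 fold change of 0.16 ± 0.19 (SE), and Msrb1, a selenoprotein, at −0.14 ± 0.22. Of the type I interferon-stimulated genes 2 were tested, Isg15 (−0.54 ± 0.28) and Oasl2 (−0.68 ± 0.61), and of the IFN-γ response genes 1, Irf1 (−0.54 ± 0.49).

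**Figure D2:**
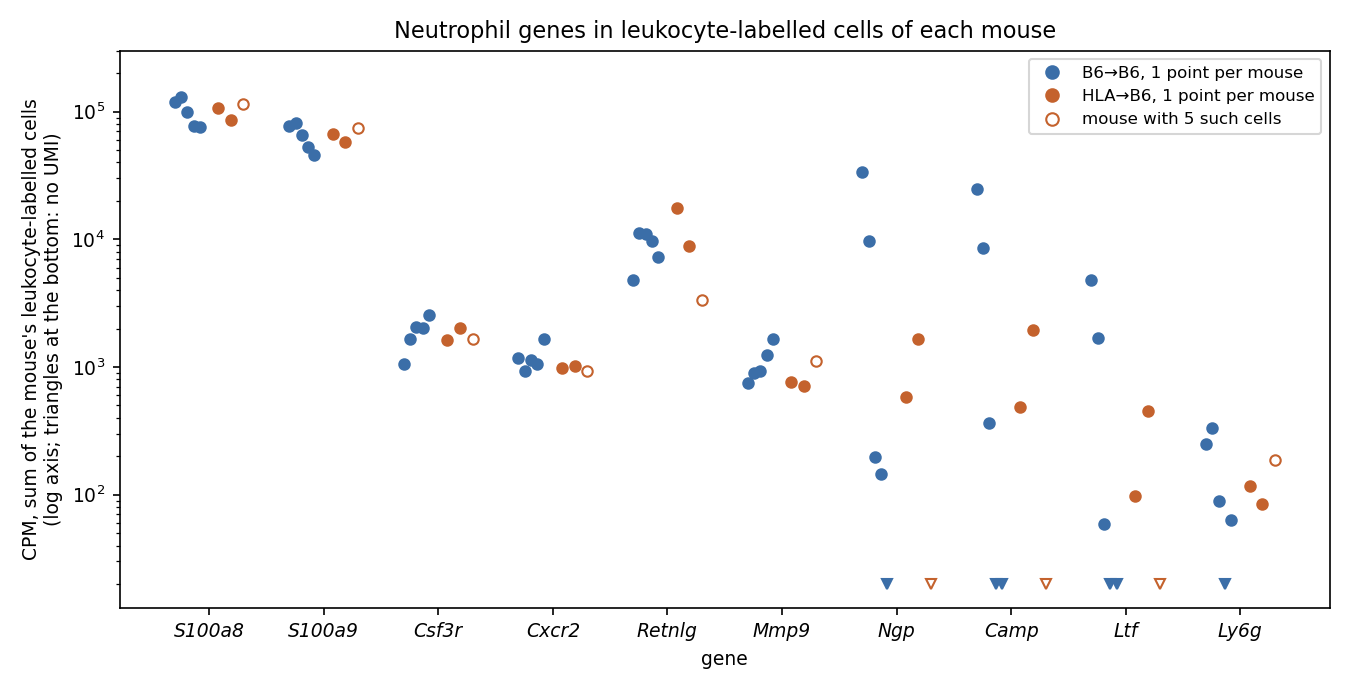
CPM of the 10 genes in the summed leukocyte-labelled cells of each mouse, on a log axis, 1 point per mouse, with triangles for no UMI and an open point for HLA→B6 mouse 3 (5 cells). The groups overlap in all 10 genes, S100a8 lies between 76088 and 129876 CPM, and Ngp, Camp and Ltf spread from no UMI to over 1000 CPM.

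The 3 secondary granule genes did not follow the others. They were absent from nearly all leukocyte-labelled cells and very high in a few. Ngp was seen in 2.95% of them, Camp in 1.08% and Ltf in 0.863%. In the B6→B6 mice Ngp was at 33516, 9635, 199, 146 and 0 CPM, Camp at 24903, 8579, 362, 0 and 0 CPM, and Ltf at 4806, 1681, 58.4, 0 and 0 CPM. In the HLA→B6 mice 1 and 2 Ngp was at 577 and 1670 CPM, Camp at 485 and 1953 CPM and Ltf at 97.0 and 453 CPM, and mouse 3 had no UMI of any. These spreads come from single cells: in B6→B6 mouse 1, 1 cell held all 537 Ngp, all 399 Camp and all 77 Ltf UMIs.

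A cut at 10 UMIs of Ngp, Camp and Ltf together, set after the values were seen, gave 13 cells that held 97.6% of all 3714 UMIs of these genes. The lowest of the 13 had 30 UMIs and the highest cell left out had 7. They came from B6→B6 mice 1 (1 cell), 2 (4 cells) and 3 (2 cells) and HLA→B6 mice 1 (5 cells) and 2 (1 cell), so both groups had them, at 5.88%, 5.41%, 0.683%, 0.579% and 2.17% of the leukocyte-labelled cells of those mice. They were deeper, at a median of 2194 UMIs and 549 genes against 672 and 333 in the other 1281 leukocyte-labelled cells of the same mice. None was marked as a doublet by Scrublet and none shared a barcode with another mouse. Scrublet marked 1 of 947 cells in B6→B6 mouse 1, 3 of 1350 in B6→B6 mouse 2 and 2 of 3291 in HLA→B6 mouse 2. The absence of a mark says little in these libraries.

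Beyond the 3 genes that chose them, these cells had other levels of most listed genes, given here as a description of 13 cells. S100a8 was at 254805 CPM against 100285 CPM in the other cells and S100a9 at 137512 against 65336 CPM. Ly6g was at 1105 against 90.7 CPM and was seen in 69.2% against 5.93% of cells. The receptors went the other way: Csf3r had 5 UMIs in all 13 cells, 135 CPM against 1801 CPM, and Cxcr2 8 UMIs, 216 CPM against 1047 CPM. Retnlg (28737 against 14500 CPM) and Mmp9 (1105 against 802 CPM) were not lower, but Retnlg had 0 to 3 UMIs in 5 of the 13 cells, among them the 3 with the most granule UMIs, and 18 to 320 in the others.

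Other granule genes moved with them. Lcn2 (lipocalin-2) was at 12293 against 971 CPM, Chil3 at 4906 against 25.5 CPM, Cd177 at 863 against 42.8 CPM and Cybb, the catalytic subunit of the oxidase, at 728 against 35.7 CPM. The interleukin gene Il1b had no UMI in the 13 cells against 4203 CPM, and the chemokine gene Cxcl2 was at 135 against 2477 CPM. Of the receptors of inflammatory signals, Fpr2 was at 512 against 211 CPM and Ltb4r1, a leukotriene receptor, at 297 against 67.3 CPM. Primary granule genes were nearly absent in both sets. Mpo and Ctsg had no UMI in either, Prtn3 had 2 UMIs in each and Ms4a3 4 against 0. Cell cycle genes were low as well, with 1 Mki67 UMI and no Top2a UMI in the 13 cells.

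**Figure D3:**
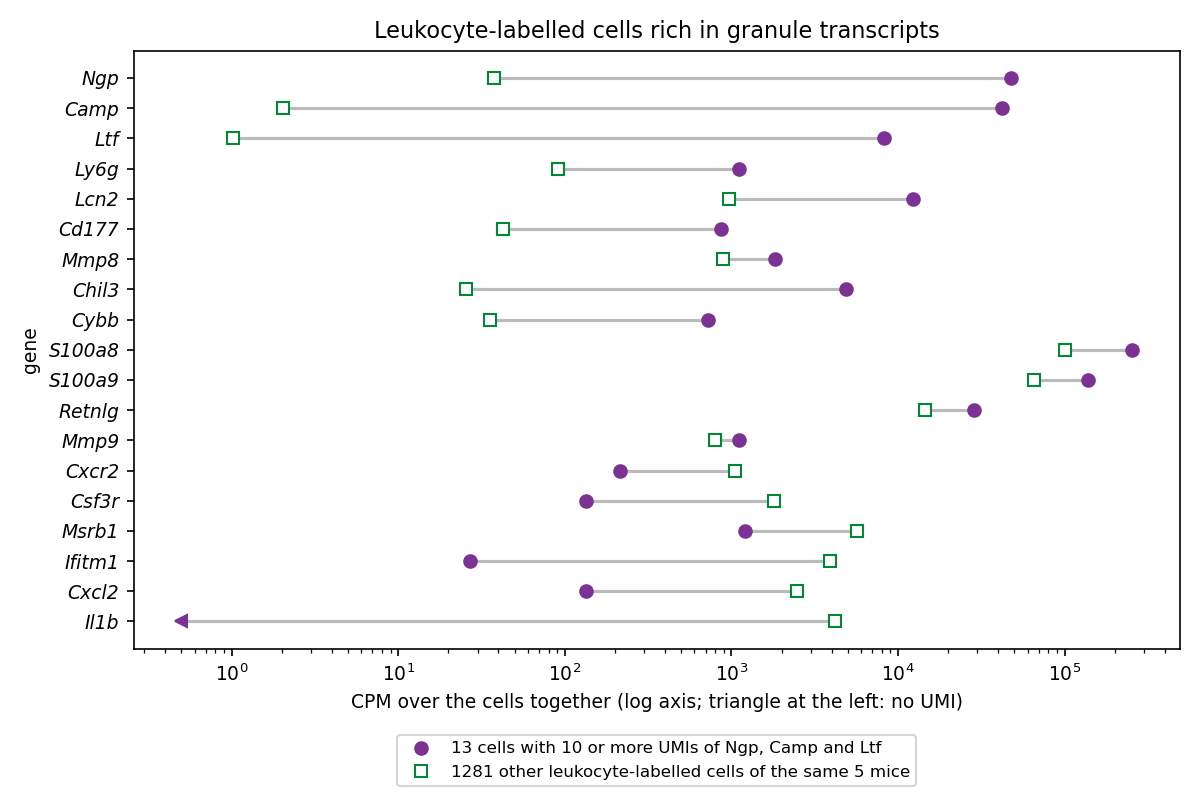
CPM (log axis) of genes chosen after their values were seen, in the 13 leukocyte-labelled cells with 10 or more UMIs of Ngp, Camp and Ltf (filled circles, triangle for no UMI) and in the other 1281 of the same 5 mice (open squares). Granule genes and the calprotectin pair are higher in the 13 cells, and Csf3r, Cxcr2, Msrb1, Ifitm1, Cxcl2 and Il1b are lower.

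Outside the leukocyte label the 2 receptors had levels of their own. Csf3r was seen in monocytes of every mouse, at 73.5, 87.4, 59.6, 84.3 and 70.1 CPM in the B6→B6 mice and 70.9, 77.3 and 50.7 CPM in the HLA→B6 mice. Of 1968 monocytes 301 (15.3%) had a Csf3r UMI, against 0.237% of T cells, at medians of 2156 and 1648 UMIs. With each cell thinned to 1000 UMIs the shares were 6.76% and 0.128%. Among these 301 cells 285 had neither an S100a8 nor an S100a9 UMI, and 290 had at least 2 of the monocyte markers. Between the groups Csf3r in monocytes differed by a log2 fold change of −0.18 ± 0.24 (SE, adjusted p = 0.9999 with edgeR). It was the single member that passed the filter on low counts there, and 0 were called against 0.023% of the 4352 genes tested (0 at an unadjusted p under 0.05 and 0 with DESeq2).

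Cxcr2 was seen in 29 of 85 cells labelled mast cell (34.1%, exact 95% interval 24.2% to 45.2%) at a median of 1459 UMIs, in 7 of 8 mice. The label reached 254 CPM, against 1.31 CPM in T cells and 2.23 CPM in monocytes. Of the 29 cells 25 had neither S100a8 nor S100a9, and 27 had at least 2 of the listed markers of mast cells and basophils. The numbers per mouse were small, between 0 and 14 UMIs from 5 to 29 cells, and no test was made.

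**Figure D4:**
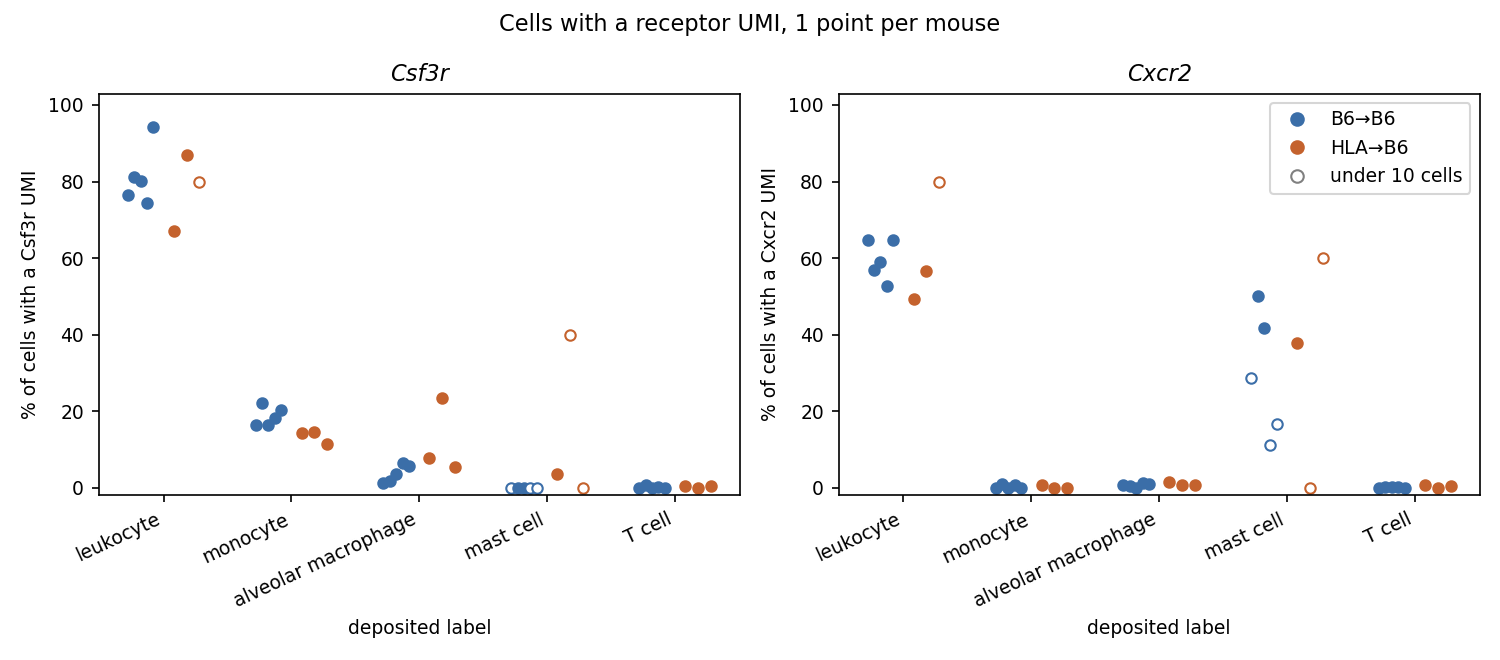
Percent of cells with a UMI of Csf3r (left) and Cxcr2 (right) in 5 labels, 1 point per mouse, open where the mouse had fewer than 10 cells of the label. Csf3r is seen in 11.3% to 22.0% of monocytes in every mouse, and Cxcr2 in mast cells of 7 mice but in at most 1.41% of monocytes, alveolar macrophages or T cells of any mouse.

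In alveolar macrophages 3 of the 10 genes had enough counts to be tested, and 1 was called. Csf3r rose in the HLA→B6 mice, from 6.59, 12.5, 14.2, 21.6 and 20.1 CPM in the B6→B6 mice to 28.4, 40.6 and 22.4 CPM. The log2 fold change was 1.21 ± 0.33 (SE, adjusted p = 0.0373 with edgeR), and 12.3% of all 5798 genes tested were called in this label. At an unadjusted p under 0.05 the test found 2 of the 3 genes, and 29.1% of all genes tested. S100a8 was at 29.7, 115, 73.2, 93.6 and 85.5 CPM and at 294, 54.5 and 179 CPM, with overlapping groups (log2 fold change 1.28 ± 0.45, adjusted p = 0.0873 with edgeR). S100a9 was at 0, 2.09, 61.0, 16.2 and 2.51 CPM and at 200, 0 and 33.6 CPM (2.35 ± 1.24, adjusted p = 0.237). A few cells carried much of the pair in 2 HLA→B6 mice. Without the 5 macrophages of HLA→B6 mouse 1 that had 3 or more of the 10 genes, its S100a8 count went from 414 to 114 UMIs and its S100a9 count from 282 to 58. Without the 1 such cell of HLA→B6 mouse 3 the counts went from 64 to 35 and from 12 to 1.

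The call of Csf3r stood close to the threshold. It was lost with DESeq2 (adjusted p = 0.0783), with the replicate number as a block (adjusted p = 0.0633), and without any 1 of the 5 B6→B6 mice or HLA→B6 mouse 1 or 2 (adjusted p between 0.0506 and 0.301). The log2 fold change stayed between 0.85 (without HLA→B6 mouse 2) and 1.66 (with the block). Marker levels in this label differed between the groups as well. Alveolar macrophage markers summed to 2587 to 3619 CPM in the B6→B6 mice and to 450 to 1152 CPM in the HLA→B6 mice, with 4 of 7 tested markers lower (Marco by 3.68 ± 0.50 and Ear1 by 3.23 ± 0.81 on the log2 scale, SE) and 0 higher. Monocyte markers summed to 131 to 716 CPM and 532 to 1160 CPM, with 1 of 7 higher (Ly6c2, a log2 fold change of 3.67 ± 0.94). Red blood cell markers summed to 347 to 15389 CPM and 0.711 to 424 CPM. Of the 225 macrophage-labelled cells with a Csf3r UMI 85 had at least 2 of the alveolar macrophage markers. Whether the label held other cells in the 2 groups or the same cells with other levels cannot be told apart here, and the part of these differences in the Csf3r value was not tested.

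Genes of the other lists were called in this label too, where 12.3% of all genes tested were called (369 higher and 344 lower), and nothing is read from a list whose share is near that. Of 7 tested IFN-γ response genes 4 rose and 0 fell, among them the interferon-induced GTPase genes Gbp3 (log2 fold change 3.29 ± 0.68, SE) and Gbp2 (2.45 ± 0.66), and the transcription factor gene Irf1 (1.37 ± 0.38). Of 3 tested type I interferon-stimulated genes 2 rose, Oasl2 (3.01 ± 0.65) and Isg15 (1.89 ± 0.50). Of 12 receptors 4 rose, led by Ptafr, the receptor of platelet-activating factor (2.94 ± 0.38), and 1 fell, the formyl peptide receptor gene Fpr2 (−1.94 ± 0.34). Of 13 genes of mature neutrophils 3 rose, led by the lectin gene Clec4d (2.09 ± 0.30), and 1 fell, Trem1 (−3.07 ± 0.71). Of 5 other granule genes 1 rose, the lysozyme gene Lyz2 (1.503 ± 0.24), and of 6 oxidase subunits 1 rose, Cyba (0.91 ± 0.27). The median log2 fold changes of these lists were 2.45, 2.04, 0.17, −0.18, 0.57 and 0.45 in the order given, beside −0.03 over all genes tested.

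In 6 of 8 mice S100a8 in alveolar macrophages had another ratio to S100a9 than in leukocyte-labelled cells. Of 2494 macrophage-labelled cells 393 (15.8%) had an S100a8 UMI, in all 8 mice, and 373 of the 393 had no S100a9 UMI. In 258 of them the S100a8 count was 1. At 1000 UMIs per cell the share was 7.01%, against 1.15% of monocytes and 0.384% of T cells. S100a8 made up 100%, 98.2%, 54.5%, 85.2% and 97.1% of the UMIs of the pair in the macrophages of the B6→B6 mice 1 to 5 and 59.5%, 100% and 84.2% in those of the HLA→B6 mice 1 to 3. The exact 95% intervals of 6 mice lay above the interval of the leukocyte-labelled cells of the same mouse, and those of B6→B6 mouse 3 (41.8% to 66.9%) and HLA→B6 mouse 1 (55.7% to 63.2%) held it. HLA→B6 mouse 2 was the clearest, with 200 S100a8 UMIs and no S100a9 UMI over 514 macrophages, beside 3043 and 2057 UMIs in its 46 leukocyte-labelled cells. Without macrophages that carried 3 or more of the 10 genes the share was 97.2% in HLA→B6 mouse 3 and 66.3% in HLA→B6 mouse 1. Without cells of shared barcodes the share of B6→B6 mouse 2 was 98.0%, and those of the other mice moved by less. Cells with S100a8 and no S100a9 were not particular to macrophages. In B6→B6 mouse 4 they were 35 T cells and 33 lung structural cells, beside 1 and 2 with both genes. S100a8 made up 50.7% and 51.2% of the pair's UMIs in those 2 labels. The B cells of B6→B6 mouse 5 had 12 S100a8 UMIs and no S100a9 UMI (exact 95% interval of the share 73.5% to 100%). The reverse was seen in cells with fewer than 3 of the 10 genes. There S100a8 had 0 UMIs and S100a9 23 in T cells and 20 in B cells of HLA→B6 mouse 1, and 15 in B cells of B6→B6 mouse 3. The authors removed free RNA of broken cells with SoupX, and whether the deposited values follow that step is not known. Its part in these ratios was not tested.

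**Figure D5:**
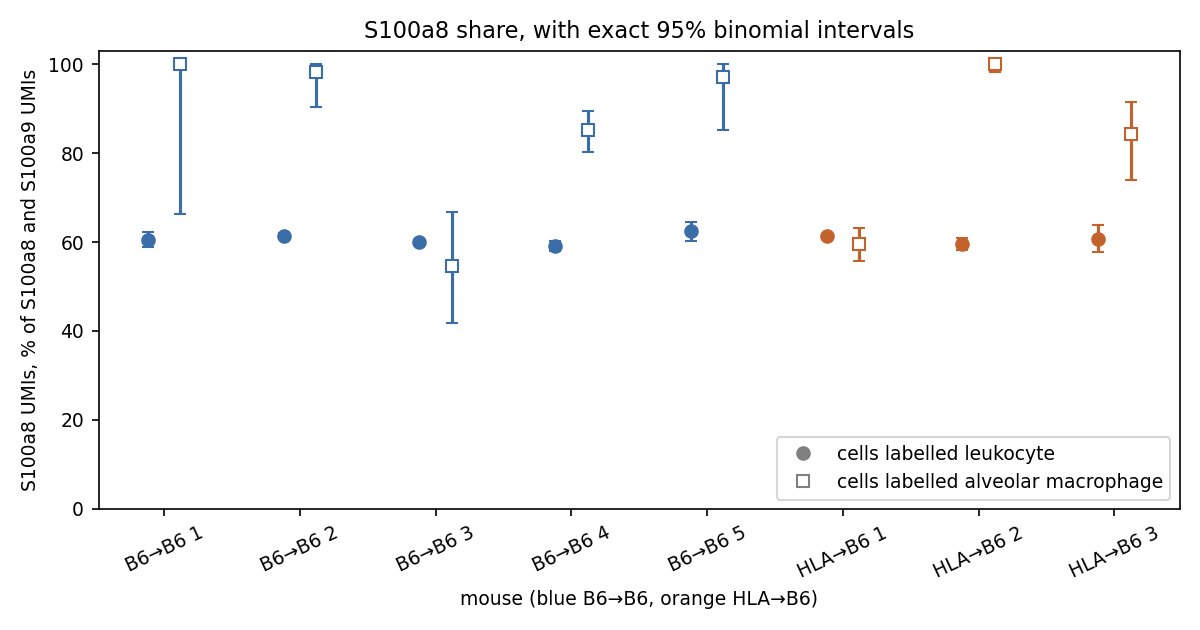
S100a8 UMIs as a percent of S100a8 and S100a9 UMIs in leukocyte-labelled cells (filled circles) and alveolar macrophages (open squares) of each mouse, with exact 95% binomial intervals, which cover counting error only. The leukocyte-labelled cells stay between 59.2% and 62.4%, and the macrophages of 6 of 8 mice lie above 84%.

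T cells served to measure the genes in cells that do not make them. In 6 of 8 mice no T cell had an S100a8 or S100a9 UMI: 0 of 179, 341, 426 and 147 cells in the B6→B6 mice 1, 2, 3 and 5, and 0 of 1130 and 231 cells in the HLA→B6 mice 2 and 3, which would allow shares of up to 1.68%, 0.880%, 0.704%, 2.04%, 0.265% and 1.30% (3 counts, counting error only) if no counts had been removed before. B6→B6 mouse 3 was among them although 12.04% of its cells were labelled leukocyte. In B6→B6 mouse 4, 71 of 1470 T cells (4.83%) had a UMI of either gene, with 38 and 37 UMIs in all and 1 UMI in 35 of the 36 cells with S100a8. In HLA→B6 mouse 1, 26 of 1147 T cells (2.27%) had one, with 267 S100a8 and 205 S100a9 UMIs, of which 0 and 23 were left without its 8 T cells that carried 3 or more of the 10 genes. Its median T cell depth was 1519 UMIs, and that of B6→B6 mouse 4 was the lowest of all at 973.5. In B cells the shares were 0.811%, 6.75% and 2.79% in B6→B6 mice 3, 4 and 5, 1.23% in HLA→B6 mouse 1 and 0 in the others.

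The group means of these shares were 0.966% ± 2.16 (SD, n = 5) and 0.756% ± 1.31 (SD, n = 3), a difference within the spread of the mice (exact permutation test, two-sided, p = 1). Within the 4 linked libraries the difference was 0, as no T cell there had either gene, and within the other 4 it was −1.28 percentage points (exact permutation p = 1). Across the 8 mice, the level of the pair in T cells and the percent of leukocyte-labelled cells had a Pearson r of 0.64 (exact permutation p = 0.179) and a Spearman rho of 0.44 (exact permutation p = 0.321), 1 relation being computed. Without the 2 mice farthest from the median percent r was −0.09, and without HLA→B6 mouse 1 it was −0.19, so the relation rests on that mouse. In T cells none of the 10 genes passed the filter on low counts, so 0 could be called, and 0.0698% of the 7164 genes tested were. DESeq2, run without that filter, called 0 of the 10. Cells of a library can hold free RNA of broken cells, and the authors removed such RNA with SoupX, but the sources used here do not say if the deposited values precede or follow that step, and if they follow it these limits do not hold.

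Cells with several of the genes outside the leukocyte label came mostly from 1 mouse. Of 1419 cells with 3 or more of the 10 genes, 1362 (96.0%) were labelled leukocyte, and the cut was not sharp, since 99 cells outside the label had 2 genes and 20 had exactly 3. Of the 57 outside, 49 were in HLA→B6 mouse 1, where they were 0.863% of the cells outside the label, against at most 0.108% in any other mouse. They were labelled monocyte (18 cells), lung structural cell (15), T cell (8), alveolar macrophage (7), myeloid cell (3), B cell, mast cell and natural killer cell (2 each). Their median was 2659 UMIs and 29 S100a8 UMIs, against 678.5 and 67 in leukocyte-labelled cells. Scrublet marked 14 of the 57 as doublets (24.6%), all in HLA→B6 mouse 1, among them 7 of the 8 labelled T cell. It marked 1.23% of all cells, with 155 of the 6544 cells of that mouse and 1 to 43 cells in the other mice.

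These cells held most of the S100a8 in some labels. In the monocytes of HLA→B6 mouse 1, S100a8 fell from 720 to 118 UMIs and S100a9 from 557 to 95 when the 17 cells with 3 or more genes were left out. In the 6 mice other than B6→B6 mouse 2 and HLA→B6 mouse 1 monocytes had no S100a8 UMI at all. In lung structural cells S100a8 had 33, 0, 198, 66 and 2 UMIs in the B6→B6 mice and 545, 0 and 0 in the HLA→B6 mice, and without such cells 0, 0, 0, 38 and 2 and 52, 0 and 0. The structural cluster named red blood cells held 438 of these UMIs and the cluster of fibroblasts and smooth muscle cells 211. S100a8 and S100a9 were the members tested in structural cells, at log2 fold changes of 0.12 ± 1.02 and 0.15 ± 0.96 (SE), and 0 of 2 were called against 0.604% of 8109 genes (0 of 2 at an unadjusted p under 0.05, and 0 with DESeq2). Without HLA→B6 mouse 1 both were lower in the HLA→B6 mice, whose other 2 libraries had 0 S100a8 UMIs and 1 S100a9 UMI together, and neither was called (adjusted p = 0.213 and 0.192 with edgeR).

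Over all cells of a mouse together, 0 of 10 genes and 0% of 11584 genes tested were called (edgeR quasi-likelihood test), with 0 of the 10 at an unadjusted p under 0.05 and 0 with DESeq2. In such sums fewer neutrophils and less RNA per neutrophil cannot be told apart. The intervals were wide, with S100a8 at a log2 fold change of −0.06 (95% interval −2.47 to 2.35) and Csf3r at 0.05 (−1.55 to 1.65). Without HLA→B6 mouse 1 all 10 genes were lower in the HLA→B6 mice, from −1.09 for Csf3r to −4.68 for Ngp on the log2 scale, and 0 were called. With the library set as a covariate 8 of the 10 were higher, against 2 of 10 without it, and 0 were called.

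Of the ligands that call neutrophils, those with enough UMIs to describe here had most of their UMIs in other labels, Cxcl2 apart. Cxcl2, a ligand of Cxcr2, had 61.7% of its 4488 UMIs in leukocyte-labelled cells, 17.5% in alveolar macrophages and 17.0% in monocytes, and in 42.2% of the leukocyte-labelled cells at least 1. Between the groups its log2 fold change in leukocyte-labelled cells was −0.44 ± 0.62 (SE, adjusted p = 0.9996 with edgeR). Cxcl15, the lung chemokine lungkine, had 89.6% of 1563 UMIs in the 32 cells labelled Type 2 pneumocyte, and Ppbp, the platelet chemokine, 90.5% of 1993 UMIs in lung structural cells. Saa3, an acute phase protein, had 70.7% of 4147 UMIs in alveolar macrophages. Cxcl1 (68 UMIs), Cxcl3 (44), Il17a (42), Csf2 (39) and Cxcl5 (8) were too thin to describe, and of the 11 listed ligands Csf3 was not among the genes of the table.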

How the data were processed

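Single cells of 8 mouse lung grafts (5 B6→B6, 3 HLA→B6) were measured by 10x 3′ sequencing. The deposited counts are UMIs per gene and cell, made by the authors with Cell Ranger on mm10 and not normalized, and all values are whole numbers. The authors left out barcodes under 200 UMIs and genes in fewer than 3 cells (17 cells of the table are nonetheless under 200), used SoupX, clustered with Seurat and named clusters with clustifyr, and the submitters' processing notes name Cell Ranger, Seurat, mm10 and GRCm38. Labels are those of the deposited table of cells, where the label monocyte is the one planned as classical monocyte. Each cell took its mouse from that table's sample column, since the numbers in the cell names of HLA→B6 mice differ from it.

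Counts were summed per label and mouse (10 cells or more), normalized by TMM, filtered by filterByExpr (minimum count 10) and compared by edgeR's quasi-likelihood test over all genes at an adjusted p under 0.05 (edgeR 4.0.16 with limma 3.58.1 in R 4.3.3; the alternative was DESeq2 1.42.0). SE is the log2 fold change over the root of F. Shares were compared by exact permutation over mice (Python 3.11.15, SciPy 1.17.1, numpy 2.4.6, pandas 2.3.3, figures by matplotlib 3.10.9). Where thinned, cells were drawn down to 500 or 1000 UMIs and shallower cells left out. Scrublet (scanpy 1.11.5, expected rate 0.06) marked 256 cells, which stayed in the main values. The fits were tested on simulated data. All library totals lay between 1669076 and 12445769 UMIs; a count of 0 was read as at most 3.

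Named were all 10 neutrophil genes, of each other list its called genes (up to 4) or else the 2 with the highest CPM where the text uses the list, and the 10 genes most like the listed ones. Of the genes so named 1 is not reported here. Genes of the 13 granule cells, of the label check, and single ligands were named after their values were seen. The members and lists were chosen with earlier results of these data known. Mice of equal number deviated together in part only (correlations of −0.25 to 0.40), so the number was used as a block only as an alternative. Other alternatives were DESeq2, RLE factors, library totals without the 10 genes, no filter, each mouse left out, at least 500 UMIs or 20 cells, Scrublet or shared-barcode cells left out, and the library set as a covariate. The GEO samples are labelled as separate mice.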

Additional observations from a re-analysis of the deposited data

Results flagged for a closer look

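In the 5 B6→B6 mice, 21 values of the report were searched for a mouse far from the other 4 (gap over range above 0.71), which chance finds in about 1 in 20 groups, and 3 were found. Ngp in leukocyte-labelled cells was at 33516 CPM in B6→B6 mouse 1 against 0 to 9635 CPM in the other 4, from 1 cell. S100a9 in alveolar macrophages was at 61.0 CPM in B6→B6 mouse 3 against 0 to 16.2 CPM. The percent of T cells with S100a8 or S100a9 was 4.83% in B6→B6 mouse 4 against 0% in the other 4.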

How the results depend on the processing

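Of 146 alternative values, 120 were the same as the main value by the rule for their kind. For the differences of shares and the correlation, a value counted as the same if its direction and its side of the threshold stayed. The direction turned in 14 values. These were 8 for cells with 3 or more genes, 5 for T cells with S100a8 or S100a9 and 1 for the correlation. For the fits, only the number of the 10 genes called was compared, and 12 values moved. The directions of the genes were no part of that rule and turned in some settings. In T cells the main fit tested 0 of the 10 genes, so its 0 was fixed beforehand. The number of the 10 genes called in alveolar macrophages moved from 1 to 0 with DESeq2, with the replicate block and without cells of shared barcodes (where Csf3r no longer passed the filter), was between 0 and 1 with each mouse left out in turn (S100a8 being the gene called without HLA→B6 mouse 2), and was 3 with no filter on low counts. With no filter, 2 genes (Ngp and Camp) were called in leukocyte-labelled cells and 3 (S100a8, S100a9 and Retnlg) in monocytes, genes whose counts sat in few cells. The cause was not tested.

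The difference in the percent of cells with 3 or more genes (0.573 percentage points) turned to −0.399 with 5 or more genes, −0.0022 at 500 UMIs per cell, −5.00 within the linked libraries and −1.24 with the replicate block, and lay between −3.65 and 2.92 with each mouse left out, the lowest without HLA→B6 mouse 1. That in T cells with S100a8 or S100a9 (−0.210) turned to 0.159 at 1000 UMIs and 0.756 with the replicate block, and lay between −0.966 (without HLA→B6 mouse 1) and 0.756 (without B6→B6 mouse 4). The r of T cell level and leukocyte share lay between −0.190 (without HLA→B6 mouse 1) and 0.920. None of these passed the threshold. The replicate block changed no other call of the 10 genes. Over all genes, the calls in alveolar macrophages (713) were 180 without HLA→B6 mouse 2, 273 without B6→B6 mouse 4, 388 without B6→B6 mouse 1, 253 with the block, 1083 with no filter and 1254 with the library set as a covariate. In leukocyte-labelled cells (0) they were 26 with no filter, 18 with the block, 8 without B6→B6 mouse 4 and 2 without HLA→B6 mouse 2. In structural cells (49) they lay between 10 (without B6→B6 mouse 4 or HLA→B6 mouse 1) and 130 (no filter), in T cells (5) between 0 and 61, in monocytes (1) between 1 and 98, and over all cells (0) they were 126 with DESeq2, 92 with the library set and 7 with the block. Depth limits Ly6g (135 UMIs in all cells) and Ltf (323) most, then Mmp9 (978) and Cxcr2 (1244), while the UMIs of Ngp (1810) and Camp (1581) sat in few cells.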
